A study of Mus musculus with 8 samples.

Results

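The subcortical maternal complex is a set of proteins that mouse oocytes store beneath the cell cortex and pass on to the embryo. Its mRNAs were followed here as 7 genes, Nlrp5, Ooep, Tle6, Khdc3, Padi6, Nlrp2 and Zbed3, chosen by gene symbol from the transcript names of the deposited tables. They account for 7 of 48440 genes and 32 of 117667 transcripts listed there. RNA was sequenced in 8 mouse libraries of 4 groups, 2 libraries each. MII oocytes stand at metaphase of the second meiotic division, and GV oocytes are held in prophase with an intact nucleus, the germinal vesicle. Per the labels, mice were given PMSG, a gonadotropin, at 5 units, 48 h ahead of a further, unnamed injection, and oocytes went into medium with 2 µM milrinone, which keeps meiosis from resuming. The label of the MII samples repeats this GV protocol and gives no maturation step. EpiC are in vitro epiblast cells. Their protocol starts from embryonic stem cells (ESC), kept in LIF, 15% FBS and a pair of inhibitors, PD0325901 and CHIR99021, which were plated for 24 h, deprived of LIF and both inhibitors, and collected about 56 h afterwards. The ESC samples carry this same text, which does not give the state of the ESC at collection. No genotype, strain or age is given in the sources used here, and neither is a poly(A) selection or the number of animals or cultures behind a library. The p-values below therefore measure only the spread between these samples, which may be technical.

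Libraries held 47463546 to 196788239 estimated counts, and replicate 2 was 2.36 to 3.31 times deeper than replicate 1 in every group. All 8 oocyte markers examined reached 1 TPM in each oocyte library, with summed levels of 25812 to 35223 TPM in MII, 22955 to 23808 TPM in GV, 1.56 to 1.95 TPM in EpiC and 7.64 to 11.1 TPM in ESC. TPM is the authors' read share of a transcript after division by its length. Naive pluripotency markers summed to 125 to 250 TPM in EpiC, against 1609 to 2083 TPM in ESC, and formative epiblast markers to 137 to 607 TPM in EpiC, against 28.0 to 53.2 TPM in ESC. The 8 cumulus and granulosa markers summed to 48.9 and 47.9 TPM in MII and to 30.3 and 131 TPM in GV, and in each library a single gene made up most of the sum. Cyp19a1 alone measured 47.4 and 44.5 TPM in MII and 23.4 and 18.3 TPM in GV, and Inha 0.215 and 1.77 TPM in MII and 4.66 and 104.5 TPM in GV. Foxl2 was at 0 in MII replicate 1 and GV replicate 1, and at 0.0239 and 0.244 TPM in the other MII and GV library. The 5 fibroblast markers stayed between 0.367 and 6.04 TPM in all libraries.

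NLRP5, also called MATER, OOEP, also called FLOPED, and TLE6 form the core of the complex. KHDC3, or FILIA, joins the core through its contact with NLRP5, and PADI6 is needed for the cytoplasmic lattices, fibres that fill the oocyte and hold stored proteins. NLRP2 and ZBED3 were found later as partners. Mouse females that lack Nlrp5, Ooep, Tle6 or Padi6 produce oocytes whose embryos stop at early cleavage. The mRNAs of such factors are made while the oocyte grows, transcription is silent in full-grown oocytes, and meiotic maturation brings both removal of many stored mRNAs and polyadenylation with translation of others.

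Promoters of 4 members are shown first: Padi6, Khdc3 and Ooep for an E-box at 1 shared position, and Zbed3 for an E-box with the letters of those in Padi6 and Khdc3. They were chosen after the motif search, which was made because several oocyte factors that act on maternal genes bind short known motifs. FIGLA, a basic helix-loop-helix factor, binds E-boxes (CANNTG), and NOBOX, a homeobox factor, binds TAATTG and TAATTA. All 7 members had a RefSeq promoter on GRCm38.p6, taken as 250 bases before to 50 bases after the start site. Zbed3 had 3 such promoters, and Nlrp5 and Tle6 had 2 each. Only the promoter nearest the 5′ end of a gene's main transcript was searched. A main transcript is the protein-coding transcript with the highest mean TPM in GV. Capitals mark every CANNTG in the 4 promoters below, each read 5′ to 3′ along the gene's strand.
Padi6, chr4:140742594-140742893, minus strand: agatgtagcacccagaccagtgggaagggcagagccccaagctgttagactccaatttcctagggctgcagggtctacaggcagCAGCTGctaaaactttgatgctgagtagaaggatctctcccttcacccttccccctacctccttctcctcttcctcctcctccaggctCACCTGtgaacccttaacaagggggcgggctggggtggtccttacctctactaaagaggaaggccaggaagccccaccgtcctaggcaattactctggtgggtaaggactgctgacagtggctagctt
Khdc3, chr9:73102148-73102447, plus strand: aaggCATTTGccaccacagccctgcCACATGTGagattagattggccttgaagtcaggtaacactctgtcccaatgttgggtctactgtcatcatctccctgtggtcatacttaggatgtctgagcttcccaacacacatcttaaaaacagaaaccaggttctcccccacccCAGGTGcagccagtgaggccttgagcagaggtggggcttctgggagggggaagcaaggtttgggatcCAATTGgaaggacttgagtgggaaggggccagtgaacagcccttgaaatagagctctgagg
Ooep, chr9:78378539-78378838, minus strand: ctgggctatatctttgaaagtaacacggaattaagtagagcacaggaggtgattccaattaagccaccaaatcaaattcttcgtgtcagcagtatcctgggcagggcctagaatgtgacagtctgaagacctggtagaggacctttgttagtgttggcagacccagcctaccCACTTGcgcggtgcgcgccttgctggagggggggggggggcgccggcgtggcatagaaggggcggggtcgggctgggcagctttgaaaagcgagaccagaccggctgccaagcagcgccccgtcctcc
Zbed3, chr13:95324575-95324874, plus strand: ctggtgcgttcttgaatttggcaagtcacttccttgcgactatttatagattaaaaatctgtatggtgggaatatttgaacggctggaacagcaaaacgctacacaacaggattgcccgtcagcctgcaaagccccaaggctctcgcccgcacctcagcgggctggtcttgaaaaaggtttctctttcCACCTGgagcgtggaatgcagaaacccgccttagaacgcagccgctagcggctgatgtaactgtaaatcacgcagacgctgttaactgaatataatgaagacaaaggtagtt

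Positions count from the RefSeq start site, and give the first base of a match. An E-box lay at position −78 in Padi6, Khdc3 and Ooep. It read CAGGTG in Khdc3, and in Padi6 the same motif stood on the opposite strand. The only E-box in the Zbed3 window searched, at position −62, was this motif on the opposite strand as well. CAGGTG, a special case of CANNTG, was present in 20.2% of the 32851 RefSeq promoter windows of this length, and CANNTG in 72.3%, both strands searched. These shares are for a match anywhere in the window, and the share with an E-box at a given position was not counted. Nlrp5 had 2 E-boxes, Tle6 had 3 and Nlrp2 had none. TAATTG was found in Ooep at position −195 and in Padi6 at position 9, and TAATTG occurred in 8% of all windows. TAATTA was found in Nlrp5 alone, against 5.29% of windows, and TATAAA in Zbed3 alone, against 13.6%. The Nlrp2 window held none of the 5 motifs. The Khdc3 window held no CpG and the Padi6 window 2, whereas Ooep and Zbed3 held 15 each and the median over all windows was 7. The 5′ end of the main GENCODE M21 transcript lay 137 bases upstream of the RefSeq start in Ooep, so that its E-box at −78 falls within the span of that transcript, and 412 bases downstream of the RefSeq start in Zbed3. These matches describe letters and say nothing of binding.

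All 7 members were higher in GV oocytes than in ESC and in MII oocytes than in EpiC. MII and ESC, which were not tested against each other, overlapped in TPM for Ooep and Khdc3. Within oocytes the complex split: Zbed3 mRNA was higher in MII than in GV oocytes, and Nlrp5, Ooep, Tle6, Khdc3 and Padi6 were lower. Poly(A) selection is not given, and any effect of tail length on how these mRNAs were captured was not tested. In these bulk libraries, fewer cells of a type and less RNA per cell cannot be told apart.

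**Figure D1:**
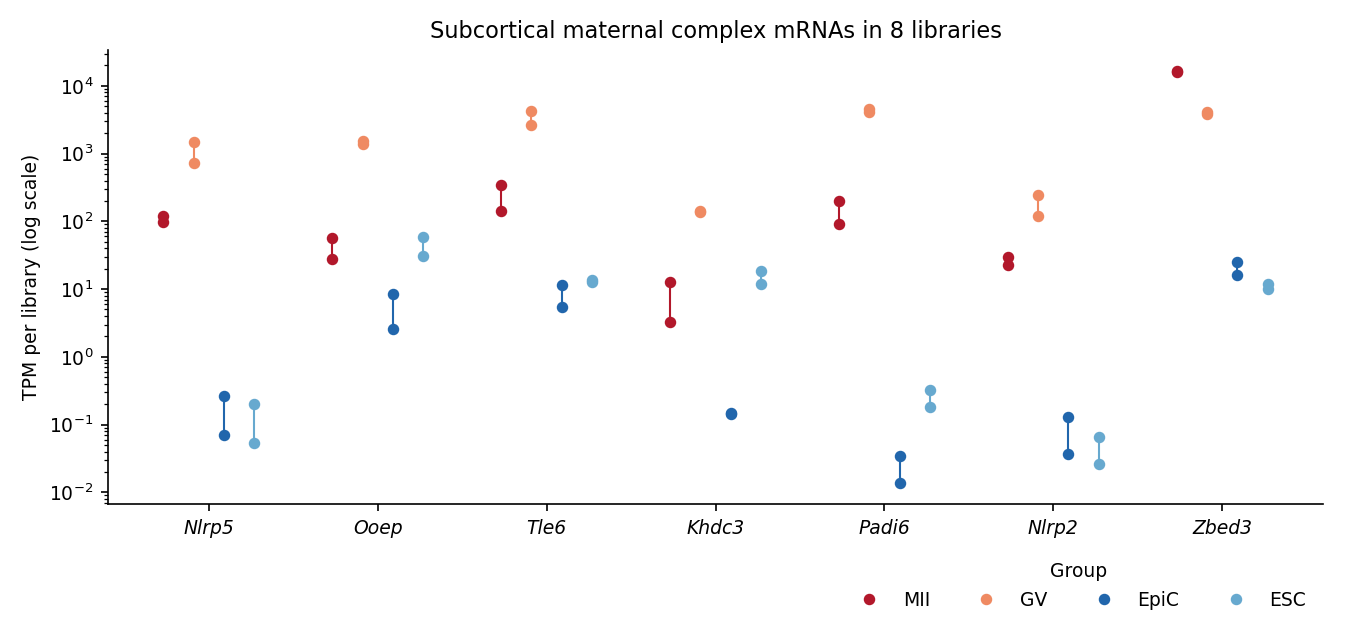
TPM of each member in every library on a log axis, with 1 point per library, a line joining the 2 libraries of a group, and groups in the order MII, GV, EpiC and ESC. Zbed3 is the only member whose MII points lie above its GV points, and Ooep and Khdc3 have ESC points well above their EpiC points.

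Among the core members, Nlrp5 lies on chromosome 7 at 23385889 to 23441922, plus strand, and its main transcript of 3508 bases has 16 exons. NLRP5 is an NLR protein with leucine-rich repeats on which the core assembles. Nlrp5 mRNA measured 99.4 and 121 TPM in MII, 1502 and 719 TPM in GV, 0.0708 and 0.268 TPM in EpiC, and 0.0533 and 0.200 TPM in ESC. Both GV libraries lay above both MII libraries, all 4 oocyte libraries lay far above the cultured cells, and EpiC and ESC overlapped. Its summed counts in cultured cells were 76 in EpiC (exact Poisson 95% interval 59.9 to 95.1) and 69 in ESC (53.7 to 87.3), intervals that cover counting error only.

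Ooep, on chromosome 9 at 78376109 to 78378725, minus strand, has 1 listed transcript of 2138 bases in 3 exons and encodes a small protein with an atypical KH domain. It measured 27.6 and 56.4 TPM in MII, 1408 and 1509.6 TPM in GV, 8.47 and 2.55 TPM in EpiC, and 59.4 and 30.3 TPM in ESC. GV libraries were the highest. MII and ESC overlapped in TPM, and both EpiC libraries lay below all others.

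Tle6, on chromosome 10 at 81590904 to 81601073, minus strand, encodes a relative of the Groucho corepressors that has become a core protein of the complex. Its RNA, which includes forms not listed as protein-coding, measured 141 and 342 TPM in MII, 2644 and 4239 TPM in GV, 5.40 and 11.5 TPM in EpiC, and 13.6 and 12.7 TPM in ESC. GV exceeded MII by far, and oocytes exceeded cultured cells. The EpiC libraries lay below the ESC libraries, without overlap, by less than the gap between the EpiC replicates.

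Khdc3, on chromosome 9 at 73101836 to 73104438, plus strand, encodes another KH-domain protein, which in mouse embryos helps to keep the chromosome number correct during cleavage. As the authors' tool split reads between Khdc3 and an overlapping gene model, Gm20509, it had the lowest mean GV level of the 7 genes, whereas the sum of both models averaged 606 TPM in GV, above Nlrp2 at 181 TPM. Khdc3 measured 3.22 and 12.6 TPM in MII, 139 and 142 TPM in GV, 0.145 and 0.150 TPM in EpiC, and 18.8 and 11.9 TPM in ESC. MII and ESC libraries overlapped, and EpiC libraries were far below both. The EpiC level rested on 5 and 18 counts, 23 in all (14.6 to 34.5).

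Padi6 lies on chromosome 4 at 140727355 to 140742643, minus strand. PADI6 belongs to the peptidylarginine deiminases, enzymes that turn arginine into citrulline, although PADI6 itself is known for the lattices. Padi6 measured 90.9 and 200.2 TPM in MII, 4057 and 4518 TPM in GV, 0.0136 and 0.0349 TPM in EpiC, and 0.180 and 0.319 TPM in ESC. All 4 groups were separate. The cultured-cell values rested on 1 and 7 counts in EpiC, 8 in all (3.45 to 15.8), and on 14 and 87 counts in ESC, 101 in all (82.3 to 122.7).

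Nlrp2, on chromosome 7 at 5298547 to 5351035, minus strand, encodes another NLR protein. It measured 30.1 and 22.3 TPM in MII, 243 and 118 TPM in GV, 0.0363 and 0.130 TPM in EpiC, and 0.0258 and 0.0664 TPM in ESC. GV libraries lay above MII libraries, and EpiC and ESC overlapped at 43 (31.1 to 57.9) and 30 (20.2 to 42.8) summed counts.

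Zbed3, on chromosome 13 at 95323612 to 95337841, plus strand, encodes a BED zinc-finger protein that in mouse oocytes helps to place the spindle. It measured 16545 and 15938 TPM in MII, 3834 and 4099.6 TPM in GV, 25.1 and 16.03 TPM in EpiC, and 12.1 and 9.91 TPM in ESC. The 4 groups did not overlap, and the MII libraries were the highest by a wide margin.

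Replicates did not differ in the same way for all members. Nlrp5 and Nlrp2, the members with the longest main transcripts at 3508 and 3404 bases, were 2.09 and 2.05 times higher in GV replicate 1 than in GV replicate 2, whereas Tle6 was 1.60 times higher in replicate 2. Across protein-coding genes at or above 10 TPM, the median log2 ratio of GV replicate 1 to replicate 2 was −0.14 in the shortest of 4 equal length classes and 0.58 in the longest, and in MII the longest class stood at 0.14. In MII, Ooep, Tle6, Khdc3 and Padi6 were each 2.05 to 3.92 times higher in replicate 2. The part of transcript length or of the granulosa marker difference between the GV libraries in these gaps was not tested.

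The order of the members changed between the oocyte stages. Among 21989 protein-coding genes, Padi6 ranked 7 in both GV libraries, Zbed3 ranked 8 and 10, and Tle6 ranked 19 and 9. Ooep ranked 59 and 42 and Nlrp5 ranked 56 and 149 there, while Khdc3 and Nlrp2 lay between ranks 653 and 1425. In MII, Zbed3 ranked 2 and 3, and the next member was Tle6 at 1090 and 425. In ESC, Ooep held the highest rank among the members, 2457 and 3994.

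Summed over the 7 genes, the complex took 16937 and 16692 TPM in MII, 13827 and 15346 TPM in GV, 39.2 and 30.6 TPM in EpiC, and 104.2 and 65.5 TPM in ESC. These sums were 1.69% and 1.67% of all TPM in MII and 1.38% and 1.53% in GV. The near-equal oocyte sums had unlike contents. Zbed3 alone made up 97.7% and 95.5% of the sum in MII, and 27.7% and 26.7% in GV, where Padi6 held 29.3% and 29.4% and Tle6 held 19.1% and 27.6%. In EpiC, Zbed3 again led with 64.0% and 52.3%, and in ESC Ooep led with 57.0% and 46.4%.

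**Figure D2:**
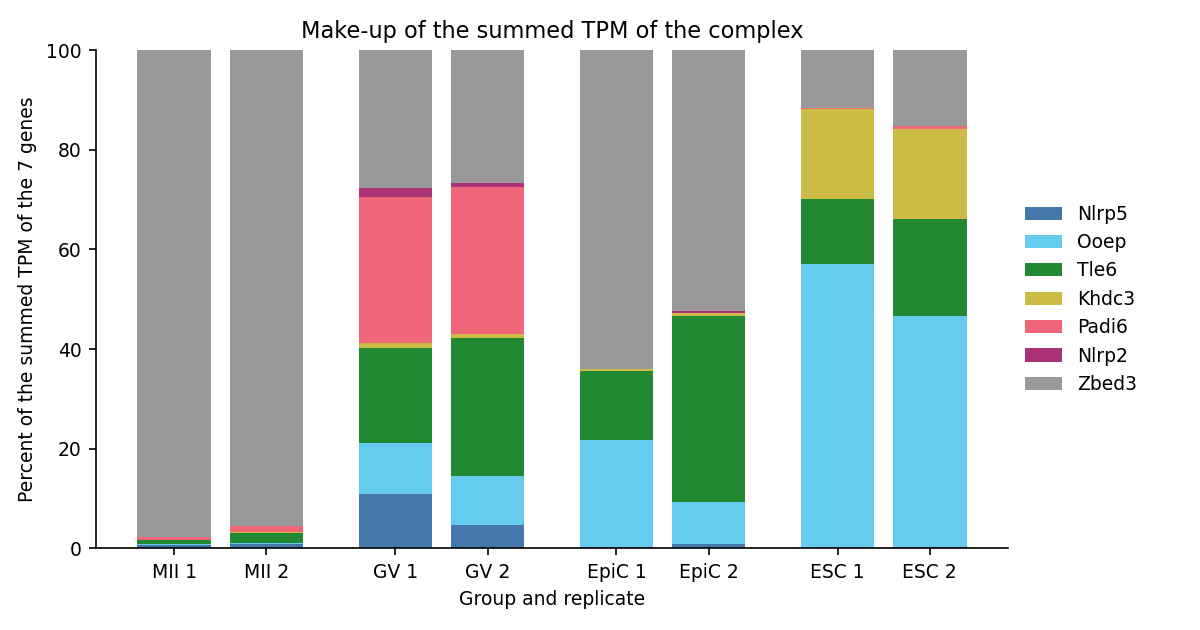
Stacked bars give the percent of the summed TPM of the 7 genes that each gene took in every library, for MII, GV, EpiC and ESC replicates. Zbed3 fills nearly the whole bar in MII, Padi6, Zbed3 and Tle6 share most of it in GV, and Ooep takes the largest part in ESC.

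Folds below come from edgeR's quasi-likelihood test on estimated counts and are log2 fold changes ± SE. Counts were scaled by TMM, which levels a weighted, trimmed mean of the genes' log ratios between libraries, not their median. The median fold of all genes tested was −0.51 in GV against ESC, −1.23 in MII against EpiC, −0.53 in MII against GV and 0.03 in EpiC against ESC. A gene was called at an adjusted p below 0.05 (Benjamini-Hochberg over 25045 genes). The scaling factors were 0.422 and 0.405 in MII and 1.08 to 1.58 elsewhere, so a fold that involves MII lies above the ratio of the TPM printed beside it. A direction is thus relative to the other mRNAs of the same cells and does not give an amount per cell.

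Against ESC, GV oocytes had more of all 7 members. Padi6 was 14.32 ± 0.85 higher (adjusted p = 6.68e-06), Nlrp5 13.59 ± 1.06 (1.73e-05) and Nlrp2 11.95 ± 0.92 (1.7e-05). Tle6 and Zbed3 were 8.83 ± 0.67 and 8.82 ± 0.50 higher. Smallest were Ooep at 5.36 ± 0.67 (adjusted p = 0.00018) and Khdc3 at 3.14 ± 0.74 (adjusted p = 0.00592), the 2 members with the highest mean level in ESC. The median of the members was 8.83, against −0.51 for all genes tested. In this comparison 59.6% of all genes were called, 28.3% higher and 31.3% lower.

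MII oocytes likewise had more of all 7 members than EpiC. Padi6 was 13.71 ± 0.87 higher, Zbed3 11.10 ± 0.55 and Nlrp5 10.73 ± 0.96. Nlrp2 at 9.49 ± 0.84, Tle6 at 6.93 ± 0.62 and Khdc3 at 6.87 ± 0.93 followed, and Ooep was the lowest at 4.49 ± 0.64 (adjusted p = 0.000265). The member median was 9.49, against −1.23 for all genes, and 68% of all genes were called, 28.5% higher and 39.6% lower. Calls and directions of all 7 members held in each alternative run for both comparisons, 18 per member and 19 for Khdc3.

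Between the oocyte stages, 1 member was higher in MII, 5 were lower and 1 was not called, where 17.4% of all genes were called higher and 22.2% lower (39.6% in all). Zbed3 was 3.19 ± 0.39 higher in MII (adjusted p = 0.000569), and 95.1% of all genes had a lower fold change. Its TPM mean was 16241 ± 429 in MII and 3967 ± 188 in GV (SD, n = 2), a ratio of 4.09. Ooep was lower by the most, at −3.94 ± 0.62 (adjusted p = 0.00116), with mean TPM of 42.0 ± 20.4 in MII and 1459 ± 71.8 in GV. Padi6 fell by a like amount, −3.70 ± 0.56 (adjusted p = 0.000947), its mean being 146 ± 77.2 TPM in MII and 4288 ± 326 TPM in GV.

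Khdc3 at −3.16 ± 0.75 (adjusted p = 0.00841) and Tle6 at −2.71 ± 0.51 (adjusted p = 0.0026) were lower in MII as well. Nlrp5 was −2.27 ± 0.66 (adjusted p = 0.022). Its call was lost without GV replicate 1, MII replicate 1 or MII replicate 2, where the fold was −1.84, −2.18 and −2.61. Nlrp2 had −1.57 ± 0.59 (adjusted p = 0.0596), past the threshold in 9 of 18 alternatives, among them limma on log2(TPM + 1) at −2.67 and the runs without GV replicate 2 (−2.02), EpiC replicate 1 (−1.58) or EpiC replicate 2 (−1.56). The members' median of −2.71 compares with −0.53 for all genes tested. The share of TPM moved further than the scaled counts: mean TPM was 34.8 times lower in MII than in GV for Ooep, 29.5 times for Padi6, 17.7 times for Khdc3, 14.2 times for Tle6, 10.1 times for Nlrp5 and 6.90 times for Nlrp2.

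**Figure D3:**
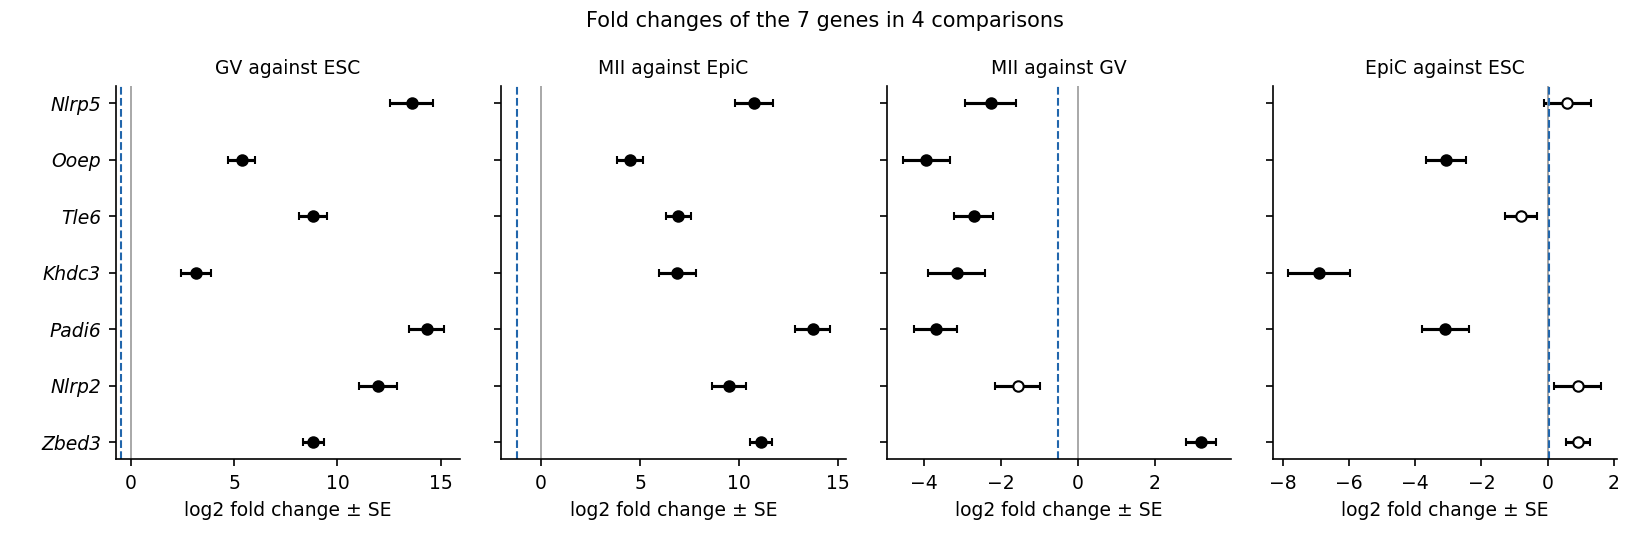
Log2 fold change ± SE of each member in 4 comparisons of the groups named above the panels. Filled points passed the adjusted p threshold and open points did not. Dashed lines mark the median of all genes tested. All points lie to the right in the first 2 panels, and Zbed3 alone lies to the right in the panel of MII against GV.

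EpiC differed from ESC in 3 members, all lower in EpiC, where 5.46% of all genes were called, 2.63% higher and 2.83% lower. Khdc3 was −6.90 ± 0.93 (adjusted p = 0.00417), with mean TPM of 0.148 ± 0.00364 in EpiC and 15.3 ± 4.89 in ESC, and only 0.26% of genes had a lower fold change. Ooep was −3.07 ± 0.60 (adjusted p = 0.02), at 5.51 ± 4.19 TPM in EpiC and 44.9 ± 20.5 TPM in ESC. Its call was lost without ESC replicate 1 (−2.58) or EpiC replicate 2 (−2.53). Padi6 was −3.09 ± 0.71 (adjusted p = 0.037) at levels below 1 TPM throughout, and its call was lost in 9 of 18 alternatives, which included limma on log2(TPM + 1) at −0.28 and the runs without GV replicate 2 (−3.10) or any single EpiC or ESC library (−4.30 to −2.52). Khdc3 kept its call in all 19 alternatives, at −7.36 to −3.80.

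The other 4 members were not called between EpiC and ESC. Zbed3 had 0.91 ± 0.36 (adjusted p = 0.221), with both EpiC libraries above both ESC libraries. Tle6 had −0.81 ± 0.48 (adjusted p = 0.485). Nlrp5 at 0.59 ± 0.71 and Nlrp2 at 0.90 ± 0.72 changed sign without EpiC replicate 2, to −0.96 and −0.66.

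The change of EpiC against ESC minus the change of MII against GV was tested in the same fit. By edgeR's test it was called for 2 members, both negative: Khdc3 at −3.74 ± 1.07 (adjusted p = 0.0277) and Zbed3 at −2.28 ± 0.51 (adjusted p = 0.0102). Over all genes, 29.7% were called, 16.4% higher and 13.2% lower. Khdc3 was thus lower in EpiC relative to ESC by more than in MII relative to GV, and Zbed3 was higher in MII relative to GV by more than in EpiC relative to ESC. Nlrp5 at 2.87 (adjusted p = 0.0513), Tle6 at 1.90 (0.0648) and Nlrp2 at 2.47 (0.0742) did not pass, and Ooep and Padi6 had 0.87 and 0.61. These positive differences gained calls in other fits: Nlrp5 and Tle6 passed with DESeq2 (2.68 and 1.70), Nlrp5, Tle6 and Nlrp2 without the count filter (3.01, 2.07 and 2.61), and these with Padi6 by limma on log2(TPM + 1) (3.29, 3.26, 2.71 and 4.69), where no member was called negative. Nlrp5, Nlrp2 and Padi6 lay at no more than 0.319 TPM in EpiC and ESC. Adding 1 TPM there leaves little of a change between these cells, such as −0.28 for Padi6. The Khdc3 difference did not hold with limma, at 0.42 on log2(TPM + 1) and −1.49 on log2(TPM + 0.1). Khdc3 stood at 0.145 and 0.150 TPM in EpiC, below the larger added constant and near the smaller. Without a constant, its ratio of mean TPM was 0.00964 for EpiC over ESC and 0.0565 for MII over GV. The Zbed3 difference kept its sign there, at −1.21 and −1.16, without a call. With single libraries left out, the Khdc3 call was lost without either GV library, MII replicate 2 (−1.75), ESC replicate 1 or EpiC replicate 1, and the Zbed3 call without MII replicate 2 (−2.18).

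Khdc3 carries a limit of its own. A gene model named Gm20509, on chromosome 9 at 73102470 to 73117920, runs over it on the same strand for 1969 bases, and 736 of the 1198 words of 31 bases in transcript Khdc3-004 (61.4%) also occur in Gm20509. Gm20509 measured 7.60 and 23.1 TPM in MII, 399.8 and 532 TPM in GV, 0.0993 and 0 TPM in EpiC, and 0.427 and 0.187 TPM in ESC. It was high where Khdc3 was high in oocytes, and was nearly absent from ESC where Khdc3 was not. How reads of the shared words were split between them cannot be checked in these tables.

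With the counts of both models added, the sum was 10.8 and 35.7 TPM in MII, 538 and 674 TPM in GV, 0.245 and 0.150 TPM in EpiC, and 19.2 and 12.1 TPM in ESC. Its fold was −3.56 ± 0.63 in MII against GV (adjusted p = 0.00191) and −6.68 ± 0.76 in EpiC against ESC (adjusted p = 0.00256). GV against ESC gave 4.95 ± 0.67 and MII against EpiC 8.08 ± 0.80. All directions and calls were those of Khdc3 alone, and the difference of the changes stood at −3.12 (adjusted p = 0.0258).

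**Figure D4:**
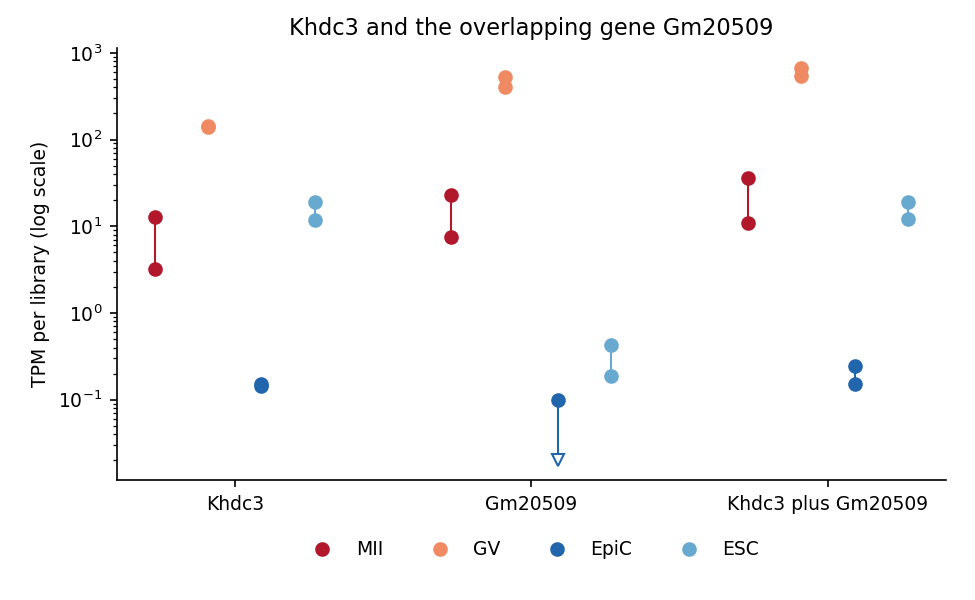
TPM per library on a log axis for Khdc3, the overlapping gene model Gm20509 and their sum, in MII, GV, EpiC and ESC. An arrow stands for the EpiC library in which Gm20509 is listed at 0. The GV points are highest in all 3 columns, and the gap between EpiC and ESC remains in the sum.

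The remaining members shared less of their sequence with other genes than Khdc3 did. No 31-base word of Padi6 or Zbed3 occurred in another gene, and 3.94% to 4.36% of words did for Ooep, Tle6 and Nlrp2. For Nlrp5 the share was 15.96%, mostly with the pseudogene Nlrp5-ps, which measured 0 and 0.0427 TPM in MII, 0.859 and 0.482 TPM in GV, 2.04 and 6.54 TPM in EpiC, and 2.11 and 4.94 TPM in ESC. The pseudogene was therefore highest in the cells where Nlrp5 was lowest. Whether reads of the pseudogene entered the 76 and 69 Nlrp5 counts in EpiC and ESC was not tested. Zbed3 carries 2 small nucleolar RNA genes on its strand, and Snora47 measured 511 and 429 TPM in MII, 134 and 137 TPM in GV, 6.02 and 8.36 TPM in EpiC, and 1.08 and 3.95 TPM in ESC. Snora47 was 2.97 ± 0.58 higher in MII than in GV (adjusted p = 0.00323). Gm5065 overlaps the 5′ end of Nlrp2 on the other strand by 499 bases and measured 183 and 114 TPM in MII and 156 and 92.3 TPM in GV.

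Transcript make-up was examined next, since a gene's total can hold RNAs that encode no protein. Nlrp5-006, listed as a retained-intron transcript, measured 31.6 and 23.9 TPM in MII and 43.1 and 19.8 TPM in GV, so the stages overlapped. The protein-coding transcripts of Nlrp5 measured 67.8 and 97.1 TPM in MII, against 1458 and 699 TPM in GV. The retained-intron form thus made up 25.8% ± 8.55 of Nlrp5 in MII and 2.81% ± 0.0800 in GV (SD, n = 2).

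Relative to the other transcripts of the gene, Nlrp5-006 was 2.25 higher in MII on the log2 scale (diffSpliceDGE of edgeR, adjusted p = 0.0448 over transcripts). The gene-level usage test did not reach the threshold (Simes, adjusted p = 0.0622) except without ESC replicate 2, and 5.55% of 11953 genes did. In the same test Nlrp5 was called in GV against ESC (adjusted p = 0.00301, where 24.7% of genes were called) and in MII against EpiC (adjusted p = 0.0017, where 30.1% were). The cultured-cell side of these calls rested on 69 summed Nlrp5 counts in ESC and 76 in EpiC. The ESC replicates also differed in make-up, with Nlrp5-005 at 84.1% and 33.6% of the gene and Nlrp5-006 at 0% and 66.4%. No read was assigned to Nlrp5-001, the main oocyte transcript, in any EpiC or ESC library. Between EpiC and ESC, where 0.092% of genes were called, the lowest adjusted p of a member was 0.643, for Nlrp5.

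**Figure D5:**
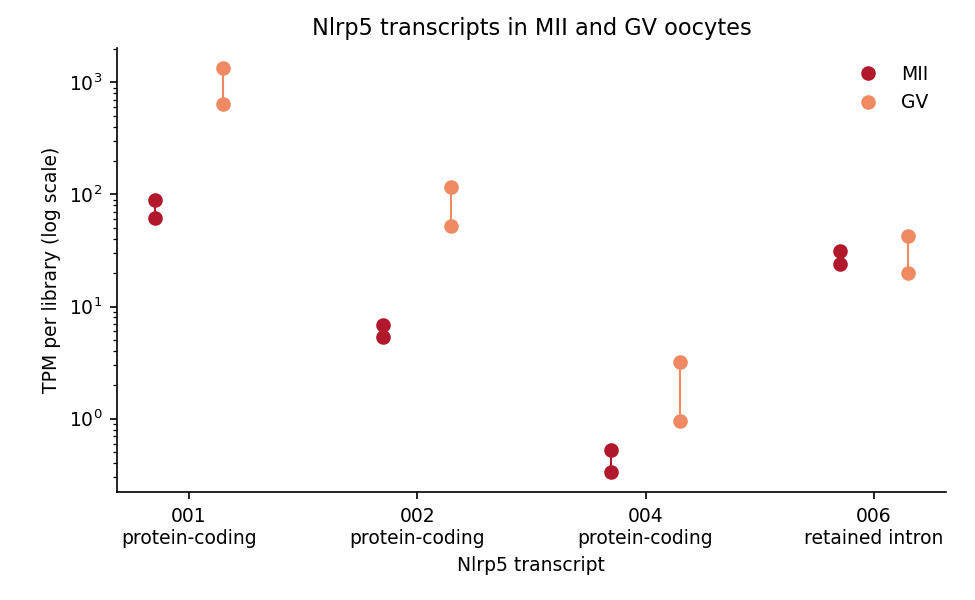
TPM per library on a log axis for 4 Nlrp5 transcripts in MII and GV oocytes, 3 protein-coding and 1 with a retained intron. The protein-coding transcripts are lower in MII, and the MII and GV points of the retained-intron transcript overlap.

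Tle6, with 14 listed transcripts, was called for usage in MII against EpiC (adjusted p = 0.0475), a call lost in 7 of the 8 runs that leave out 1 library. Retained-intron forms made up 0.535% and 0.814% of Tle6 in MII, 0.713% and 0.411% in GV, 16.9% and 40.4% in EpiC, and 23.9% and 30.5% in ESC. The oocyte libraries and the cultured cells did not overlap in this share. GV against ESC was not called for Tle6 usage (adjusted p = 0.135). Khdc3-001 made up 38.9% ± 0.847 of Khdc3 in GV and 89.2% ± 4.09 in ESC, and usage was not called (adjusted p = 0.377), except without MII replicate 1 (adjusted p = 0.0261).

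The last bases of the oocyte mRNAs are shown because cytoplasmic polyadenylation in maturing oocytes is known to use the polyadenylation hexamer AATAAA with U-rich elements read by CPEB1, written here in DNA letters as TTTTAT and TTTTAAT. This search was chosen after the values had been seen. For Khdc3 the main transcript, Khdc3-004, made up 40.2% of the gene in GV, beside 38.9% for Khdc3-001. In ESC it made up 9.61%, beside 89.2%. The lines give the final 30 bases of the main transcript in GENCODE M21 (GRCm38), 5′ to 3′, with these motifs in capitals.
Zbed3: tttttTTTTAATAAAcTTTTATttatctgc
Padi6: agagccAATAAAgcatggtattctgaatgt
Tle6: agttgcgtgtAATAAAacaattgaaatggc
Nlrp5: gaatgaAATAAAcacagcatttagaaaagc
Khdc3: ttaaagtattctAATAAAaaaaaaattgca

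Zbed3 was the only one of the 7 with TTTTAT or TTTTAAT in its final 100 bases, and it had both, beginning 14 and 25 bases from the end. Any link of these motifs to the direction in MII against GV was not tested. Of 47474 transcript ends, 12.3% held TTTTAT, 4.48% held TTTTAAT, and 15.9% held either. AATAAA was present in 6 members and in 52.7% of ends. Ooep held none of these motifs and also no ATTAAA, which 17.5% of ends held. Of the final bases shown for Khdc3, AATAAA begins 18 bases from the end. The match is a description of letters, and no use of these motifs was measured.

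Reported partners of the complex did not move as 1 group. Of 5 partners tested, 1 was higher in MII than in GV, 2 were lower and 2 were not called. Among all genes, 39.6% were called in MII against GV and 5.46% in EpiC against ESC. The shares were 59.6% in GV against ESC and 68% in MII against EpiC, and they apply to the gene lists below as well. Nlrp14, an oocyte NLR gene, measured 133 and 160 TPM in MII and 4156 and 1376 TPM in GV, at −3.05 ± 0.67 (adjusted p = 0.00567). Cfl1, which encodes the actin-severing protein cofilin, was −2.66 ± 0.43. Ube2d3, a ubiquitin-conjugating enzyme, was 2.36 ± 0.44 higher in MII. Nlrp4f at 1.08 ± 0.69 and Uhrf1, which encodes a reader of hemimethylated DNA, at 0.73 ± 0.44 were not called. Against ESC, GV had 3 of the 5 higher and none lower, and against EpiC, MII had 4 higher and 1, Cfl1, lower. Between EpiC and ESC, Nlrp4f came nearest to the threshold at −2.98 ± 0.74 (adjusted p = 0.0513), and the adjusted p of the other 4 was 0.147 or more.

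Relatives of the members by family were set beside them. Of 4 KH-domain genes near Ooep and Khdc3 in kind, Khdc1a, Khdc1b and Khdc1c were called higher in GV than in ESC and in MII than in EpiC. Dppa5a, a pluripotency gene, measured 23.7 and 61.1 TPM in MII, 1110.1 and 890 TPM in GV, 1967 and 1598 TPM in EpiC, and 4942 and 4224 TPM in ESC, and was lower in oocytes in both comparisons. Dppa5a was also −3.36 ± 0.51 in MII against GV (adjusted p = 0.000955), while Khdc1b was 2.58 ± 0.46 higher. Between EpiC and ESC, Dppa5a had −1.34 ± 0.47 (adjusted p = 0.157), beside −6.90 for Khdc3 and −3.07 for Ooep, and the difference between these genes was not tested.

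The other deiminase genes were low in oocytes. Among the 4 Padi relatives the highest value in an oocyte library was 1.30 TPM, for Padi2. By edgeR's test, 1 of the 4 was lower in GV than in ESC and 2 were lower in MII than in EpiC, and the rest were not called. Padi4 measured 0.0109 and 0 TPM in MII, 0.171 and 0.115 TPM in GV, 0.850 and 0.677 TPM in EpiC, and 9.44 and 4.32 TPM in ESC, and was −3.33 ± 0.77 in EpiC against ESC (adjusted p = 0.0389). Padi6 and Padi4 were thus both called lower in EpiC than in ESC. The Padi6 call held in only 9 of 18 alternatives and rested on 8 summed counts in EpiC. Between the stages, Padi1, Padi3 and Padi4 were called lower in MII than in GV, at no more than 0.195 TPM in any oocyte library.

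Among 5 Tle relatives, classic Groucho corepressors and the shorter Aes, 2 were lower in GV against ESC (Tle3 and Tle4) and 1, Tle3, was lower in MII against EpiC, and the others were not called. Between stages, Tle4 was 1.34 ± 0.38 higher in MII (adjusted p = 0.0194) after scaling, although its levels of 9.23 and 11.3 TPM in MII overlapped 10.96 and 7.36 TPM in GV, and Aes was −1.78 ± 0.38 (adjusted p = 0.00479). Aes was also −2.87 ± 0.39 in EpiC against ESC (adjusted p = 0.00439), with 21.8 and 15.6 TPM in EpiC and 170.7 and 106 TPM in ESC. Of 3 Zbed relatives, Zbed4 moved as Zbed3 did between stages, 2.92 ± 0.39 higher in MII (adjusted p = 0.000644), at 63.5 and 44.5 TPM in MII and 21.7 and 12.6 TPM in GV. Zbed5 and Zbed6 were not called between the stages, and Zbed6 was lower in oocytes than in cultured cells.

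Of 18 other Nlrp genes, 15 could be tested. GV had 12 higher than ESC and 1 lower, and MII had 11 higher than EpiC and 2 lower. Of all genes, 28.3% were called higher in GV against ESC and 28.5% in MII against EpiC. Between MII and GV, 12 of the 15 were not called, Nlrp4a was 1.59 ± 0.55 higher in MII (799.6 and 432 TPM in MII, overlapping 703 and 213 TPM in GV), and Nlrp14 and Nlrp9b were lower, Nlrp9b at −1.94 ± 0.67. EpiC had 2 lower than ESC, Nlrp4a at −6.35 ± 0.79 (adjusted p = 0.00327) and Nlrp9c at −3.94 ± 0.77 (adjusted p = 0.0207), both at no more than 1.78 TPM in cultured cells. The median fold of the tested Nlrp genes was 0.06 in MII against GV, beside −2.27 for Nlrp5 and −1.57 for Nlrp2.

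The list of 7 oocyte transcription factors held both directions in MII against GV, 3 lower, 3 higher and 1 not called. Figla measured 1.85 and 2.94 TPM in MII and 55.8 and 63.3 TPM in GV, at −3.50 ± 0.66 (adjusted p = 0.00278). Nobox was −3.29 ± 0.41 and Lhx8, a LIM-homeobox factor, −2.68 ± 0.40. Sohlh2, another helix-loop-helix factor, was 3.48 ± 0.47 higher in MII, as were Taf4b at 2.11 ± 0.49 and Tbpl2 at 1.51 ± 0.47, which encode subunits of the basal transcription machinery. Tbpl2 overlapped in TPM, at 27.8 and 22.3 TPM in MII and 25.2 and 13.8 TPM in GV. Figla was also higher in EpiC than in ESC, by 3.94 ± 0.85 (adjusted p = 0.0296), with 1.13 and 0.354 TPM in EpiC and 0.0464 and 0.0394 TPM in ESC.

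A list of 15 further maternal-effect genes, whose products the embryo needs from the oocyte, had 7 higher, 5 lower and 3 not called in MII against GV. Dppa3, Kdm1b and Ctcf, called higher, overlapped in TPM between the stages. Tet3, a DNA demethylation enzyme, was 5.52 ± 0.45 higher in MII, and Btg4, an adaptor of mRNA deadenylation, was 4.16 ± 0.44 higher, at 6766 and 5095 TPM in MII and 676 and 793 TPM in GV. Trim28 was 2.01 ± 0.47 higher. Npm2, a histone chaperone, was −4.04 ± 0.73, Ube2a −2.96 ± 0.39 and Dnmt3l −2.49 ± 0.52. Zbed3 thus stood with Tet3 and Btg4 in direction, and the other called members with Npm2. Zfp57, a keeper of imprints, was the only one of these called between EpiC and ESC, at −3.22 ± 0.39 (adjusted p = 0.00304), with 56.4 and 35.2 TPM in EpiC and 436 and 417 TPM in ESC.

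The protein-coding genes nearest to each member were found by Euclidean distance between centred log2(TPM + 1) profiles over the 8 libraries, among 13350 candidates. For Padi6 they were Zp2 (distance 1.05), Npm2 (1.92) and Nlrp14 (1.93). Zp2, a zona pellucida gene, averaged 86.2 TPM in MII, 2863 TPM in GV, 0.0435 TPM in EpiC and 0.0860 TPM in ESC. Nlrp5 lay closest to C87977 (0.57), Oosp2 (0.65) and Gm13103 (0.96), and Nlrp2 closest to D5Ertd577e (0.46), Gpr1 (0.56) and Ttll11 (0.63).

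Ooep and Khdc3 shared 2 of their 3 neighbours, Glrx and Tuba3a. Glrx, a glutaredoxin gene, lay at 1.58 from Ooep and 2.29 from Khdc3, and averaged 39.8 TPM in MII, 719.5 TPM in GV, 1.87 TPM in EpiC and 27.4 TPM in ESC. The nearest gene to Khdc3 was Zfp57 (1.66), which, like Khdc3, was lower in MII than in GV and lower in EpiC than in ESC. Tle6 lay closest to Gja4 (1.22), Ehf (1.37) and Gm20509 (1.42). Zbed3 stood with Tcl1b3 (1.03), Trim75 (1.22) and Wee2 (1.28), all higher in MII than in GV by mean TPM: Wee2, a kinase that keeps oocytes arrested, averaged 908 TPM in MII, 359 TPM in GV, 0.00939 TPM in EpiC and 0.00630 TPM in ESC.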

How the data were processed

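RNA of 2 libraries each of MII oocytes, GV oocytes, EpiC and ESC was extracted with TRIzol and sequenced as stranded paired-end libraries, per the labels' protocols. Each deposited table gives estimated counts for every transcript, made by the authors with kallisto 0.43 on mm10 per the submitters' processing notes. They also hold TPM, which the authors' tool computed from those estimated counts and the effective transcript lengths, per the file headers. The sources used here give no options, annotation release or poly(A) selection. No interval or p printed here covers the error of assigning reads to transcripts.

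Estimated counts were summed per gene identifier in the transcript name and rounded. Genes were filtered with filterByExpr, which kept 25045 and all 7 members, and scaled by TMM. The quasi-likelihood test of edgeR 4.0.16 (R 4.3.3, robust, 1 mean per group, 8 libraries, 4 residual degrees of freedom) gave each contrast, and Benjamini-Hochberg adjustment ran over all genes at 0.05. All adjusted p-values of genes are from this test. Every SE of a fold is approximate, the size of the fold divided by the root of its F statistic. Transcript usage was tested with diffSpliceDGE and Simes p-values for 11953 genes. Alternatives were relative log expression, DESeq2 1.42.0, no count filter, limma 3.58.1 on log2(TPM + 1) and log2(TPM + 0.1), a length offset, the compared groups alone, a replicate block and each library left out. Runs without Gm42418 counts and with Gm20509 added to Khdc3 were chosen after the data were seen. Gm42418, a gene model that overlaps ribosomal RNA sequence, held 1.66% to 22.7% of counts in the replicate 2 libraries.

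On simulated counts for GV against ESC over 25045 genes, the gene test recovered 4, 30, 50 and 50 of 50 genes changed 2, 4, 8 and 16 times, with 7 false calls. Every simulated gene had the same dispersion, and no other gene differed between groups. In the data 59.6% of genes were called in GV against ESC, so the 7 false calls are no error rate for it. The usage test recovered 200 of 200 genes changed 16 times over 11490 genes, with 43 other genes called, 17.7% of its calls, so its p-values are too small to be read strictly.

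Members and lists were chosen with earlier results of these data known. Named genes are the members, all measured genes of the partner, KH, Padi, Tle, Zbed and oocyte transcription factor lists, up to 3 called genes per direction and comparison from the other Nlrp and maternal-effect lists, and the 3 nearest protein-coding genes to each member with a mean of at least 1 TPM. Genes overlapping a member were added after their values were seen. Positions and transcript ends came from GENCODE M21 on GRCm38, and promoters from RefSeq on GRCm38.p6.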

Additional observations from a re-analysis of the deposited data

Results flagged for a closer look

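The change of EpiC against ESC differed from the change of MII against GV for 2 members in the test of that difference. In the same test 29.7% of all genes were called. Khdc3 had −3.74 on the log2 scale (edgeR quasi-likelihood, adjusted p = 0.0277), made of −6.90 in EpiC against ESC and −3.16 in MII against GV. It was lower in both EpiC libraries than in both ESC libraries, and lower in both MII libraries than in both GV libraries. Zbed3 had −2.28 (adjusted p = 0.0102), made of 0.91 in EpiC against ESC and 3.19 in MII against GV, with EpiC and MII libraries above those they were compared with. Neither comparison shares a library with the other. With limma on log2(TPM + 1), neither difference was called, at 0.42 for Khdc3 and −1.21 for Zbed3.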

How the results depend on the processing

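Calls and directions of all 7 members in GV against ESC and MII against EpiC, and of Zbed3, Ooep, Tle6, Padi6 and Khdc3 in MII against GV, held in every alternative run. Zbed3 ran from 2.03 to 3.42 there. Nlrp2 in MII against GV passed the threshold with no count filter (−1.77), limma on log2(TPM + 1) with and without filter (−2.67) and on log2(TPM + 0.1) (−2.71), a length offset (−1.61) and the compared groups alone (−1.46). Without single libraries it ran from −2.02 to −1.03 and Nlrp5 from −2.68 to −1.84.

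In EpiC against ESC, Padi6 lost its call with limma on log2(TPM + 1) with and without filter (−0.28), on log2(TPM + 0.1) (−1.47) and in the compared groups alone (−3.16). Ooep lost it with unfiltered limma (−2.91) and in the compared groups alone (−3.05), which left 1 member called lower in both. Without single libraries, members called lower numbered 1 to 3, Padi6 ran from −4.30 to −2.52, Ooep from −3.95 to −2.53, Nlrp5 from −0.96 to 1.74 and Nlrp2 from −0.66 to 1.93.

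For the difference of changes, members called higher numbered 2 with DESeq2, 3 without the count filter, 4 in each limma run and 2 with the replicate block (Nlrp5 at 2.98, adjusted p = 0.0318, and Tle6 at 1.86, adjusted p = 0.0179), and members called lower numbered 0 in each limma run, where the Khdc3 value turned to 0.42 on log2(TPM + 1). Without single libraries, members called higher numbered 0 to 3 and lower 0 to 2, and Padi6 ran from −0.60, without EpiC replicate 2, to 1.42. Usage in MII against EpiC called 1 member with the replicate block, and without single libraries usage called 1 to 2 members in GV against ESC, 1 to 2 in MII against EpiC and 0 to 1 in MII against GV.

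Genes called in EpiC against ESC numbered 1527 higher and 1426 lower with DESeq2, 1303 and 1277 without the count filter, 997 and 1275 with unfiltered limma, 1347 lower with limma on log2(TPM + 1), and 355 higher in the compared groups alone. Limma on log2(TPM + 1), log2(TPM + 0.1) and unfiltered called 4372, 4534 and 4587 genes higher in MII against EpiC, 2394, 2221 and 2147 in MII against GV, and 6768, 6822 and 7022 in the difference, with 2018 and 2172 lower there in the last 2. Without single libraries, counts ran from 4922 to 8280 lower in GV against ESC, 135 to 572 higher and 274 to 684 lower in EpiC against ESC, and 2452 to 3908 higher in the difference. The cause of these shifts was not tested.

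Relative to TMM, limma on log2(TPM + 1) moved the median fold of all genes by −0.87 in MII against GV, −1.09 in MII against EpiC, −0.27 in GV against ESC and 0.77 in the difference, and relative log expression moved it by 0.21 and 0.19 in the first 2. Same-numbered replicates deviated together in GV with MII (correlation 0.31) and ESC with EpiC (0.71), but not across these pairs (−0.02 to 0.01), and with only 2 numbers the block is no paired design. Below about 1 TPM, counts of 1 to 87 per library limit Nlrp5, Nlrp2 and Padi6 in EpiC and ESC.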
